A study of Mus musculus with 6 samples.

Results

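Citrullination is the conversion of arginine residues of a protein to citrulline, and the enzymes that carry it out are the peptidylarginine deiminases, encoded by the Padi genes. The genes described here are Padi1, Padi2, Padi3 and Padi4 together with Greb1, a gene of estrogen receptor signalling. They were chosen by symbol, and all 5 were found among the 21900 genes of the tables. RNA was sequenced from whole uteri of pregnant mice on gestational day 4, with the day of the vaginal plug counted as day 1. There were 3 libraries labelled Mettl3 d/d and 3 labelled Mettl3 f/f, from females 6 to 8 weeks old that had been mated with fertile males. The Mettl3 protein is the methyltransferase that places N6-methyladenosine on RNA, f/f usually denotes an allele flanked by loxP sites, and d/d the same allele after deletion. The labels give neither the Cre line nor the deleted exons nor the number of animals behind a library, so p-values cover no more than the spread among these libraries.

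Deiminases need calcium, and removing the positive charge of arginine alters how a protein folds and what it binds. Padi1 and Padi3 are best known from the epidermis and the hair follicle, where keratins and filaggrin are substrates, Padi2 is the most widely expressed of the family, and Padi4, whose protein carries a nuclear localization signal, is best known for deiminating histones in neutrophils. Deiminase activity in the rodent uterus is known to depend on estrogen. Greb1 was found as an early estrogen-induced gene in human breast cancer cells, where its protein binds the estrogen receptor on chromatin.

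The 6 tables summed to 535043 to 625575 FPKM (fragments scaled to gene length and library size) and had 15978 to 16359 genes above 0. The absolute depth is unknown. Of the genes, 12979 reached 1 FPKM in at least 3 libraries and were tested with limma on log2(FPKM + 1). Esr1, at 37.5 to 53.8 FPKM, and Hoxa10, both genes expressed in the uterus, were detected in all 6 libraries. Hoxa10 was at 56.4, 66.6 and 45.3 FPKM in d/d replicates 1, 2 and 3. In f/f replicates 1, 2 and 3 it was at 279, 235 and 243 FPKM, and it was called lower in d/d libraries by limma. Mettl3 itself was at 42.9, 30.1 and 46.5 FPKM in d/d replicates 1, 2 and 3, against 30.3, 29.8 and 26.3 FPKM in the f/f libraries. A value over the whole gene does not check the deletion, so every direction rests on the labels, and d/d means labelled d/d throughout. The d/d libraries were not alike in their levels of cell type markers. The summed FPKM of 14 neutrophil markers was 31.6, 1182 and 29.7 in d/d replicates 1, 2 and 3, against 9.14 to 15.9 in f/f libraries, and that of 10 epithelial markers was 2037, 841 and 3341, against 1143 to 1344. In whole tissue, fewer cells of a type and less RNA per cell cannot be told apart.

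The Padi genes form 1 cluster on mouse chromosome 4 (GRCm38, 140727355 to 140952586), which spans 225232 bp and also holds Padi6, a gene of the oocyte and early embryo. Padi4 lies at 140745865 to 140774236, Padi3 at 140785365 to 140810648 and Padi1 at 140812983 to 140845778, all on the minus strand. Padi2 lies at 140906344 to 140952586 on the plus strand, so that Padi1 and Padi2 are transcribed away from each other. Greb1 stands apart on chromosome 12 (16670615 to 16800886, minus strand). Noncoding annotations on the opposite strand overlap Padi1 by 4529 bp, Padi2 by 4921 bp and Greb1 by 12774 bp, and since no use of strand is stated, those stretches cannot be assigned to 1 gene.

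The sequences around the starts of the 5 genes are shown because 4 of them are neighbours in the cluster and yet differed between the d/d libraries. RefSeq gives 1 start region for each Padi gene and 2 for Greb1 (GRCm38.p6), each running 300 bases in the direction of transcription. Capitals mark matches on either strand to the estrogen response half-site GGTCA, the TATA box TATAAA, the GC box GGGCGG and the AP-1 site TGANTCA.
Padi4, chr4:140774154-140774453, minus strand: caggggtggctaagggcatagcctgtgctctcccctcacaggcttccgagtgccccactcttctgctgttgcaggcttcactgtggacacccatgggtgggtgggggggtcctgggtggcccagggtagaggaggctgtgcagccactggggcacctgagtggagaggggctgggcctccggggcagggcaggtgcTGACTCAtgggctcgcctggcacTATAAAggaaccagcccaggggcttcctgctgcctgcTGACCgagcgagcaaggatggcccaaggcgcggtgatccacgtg
Padi3, chr4:140810599-140810898, minus strand: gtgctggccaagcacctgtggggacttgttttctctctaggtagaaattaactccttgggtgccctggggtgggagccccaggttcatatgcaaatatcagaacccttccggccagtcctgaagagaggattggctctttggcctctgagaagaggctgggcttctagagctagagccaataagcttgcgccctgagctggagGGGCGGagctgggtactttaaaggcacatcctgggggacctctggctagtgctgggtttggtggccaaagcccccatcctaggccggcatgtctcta
Padi1, chr4:140845729-140846028, minus strand: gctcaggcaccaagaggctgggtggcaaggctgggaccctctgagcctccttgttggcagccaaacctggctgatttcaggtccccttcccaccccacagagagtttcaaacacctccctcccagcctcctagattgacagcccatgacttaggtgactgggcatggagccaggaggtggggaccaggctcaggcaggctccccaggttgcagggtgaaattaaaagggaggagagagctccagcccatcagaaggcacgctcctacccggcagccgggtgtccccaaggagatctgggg
Padi2, chr4:140906110-140906409, plus strand: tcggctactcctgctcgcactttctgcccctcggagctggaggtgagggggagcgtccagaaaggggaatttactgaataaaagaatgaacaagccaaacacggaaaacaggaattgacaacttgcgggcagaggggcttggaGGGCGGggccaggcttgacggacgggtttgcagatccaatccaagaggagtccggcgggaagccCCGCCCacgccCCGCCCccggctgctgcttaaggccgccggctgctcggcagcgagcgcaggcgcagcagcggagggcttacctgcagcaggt
Greb1, chr12:16800837-16801136, minus strand: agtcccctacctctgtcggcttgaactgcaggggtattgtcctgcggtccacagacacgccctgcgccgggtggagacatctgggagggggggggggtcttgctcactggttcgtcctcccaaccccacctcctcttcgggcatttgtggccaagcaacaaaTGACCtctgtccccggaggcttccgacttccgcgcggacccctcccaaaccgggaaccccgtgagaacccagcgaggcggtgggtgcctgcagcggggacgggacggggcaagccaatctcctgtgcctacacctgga
The full palindromic estrogen response element, which contains the half-site in both directions, and the palindrome bound by progesterone and glucocorticoid receptors had no match in these windows or in the other Greb1 start region. They are rare in windows of this length, at 0.0701% and 0.475% of 32817 promoters, and no match says only that these letters are not in the window. Padi4 was the one Padi gene with a half-site, a TATA box and an AP-1 site, which 40.5%, 13.6% and 7.81% of all promoters hold. Padi2 had 3 GC boxes and Padi3 had 1 (35.6% of all promoters), while Padi1 had none of the 6 motifs. Greb1 had 1 half-site in the region shown and 2 in its other start region. GGACT, a sequence in which N6-methyladenosine is often placed, occurred at 1.07, 1.26, 1.51 and 1.73 per kb in the longest coding transcripts of Padi1, Padi2, Padi3 and Padi4 and at 1.12 per kb in that of Greb1, against a median of 1.06 per kb over 12799 tested genes. Methylation was not measured in these libraries.

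Padi4 was higher in all d/d libraries and was the member that passed the test. It stood at 34.7, 16.8 and 54.6 FPKM in d/d replicates 1, 2 and 3, against 5.75, 5.15 and 6.03 FPKM in f/f replicates 1, 2 and 3. The genotypes did not overlap, the f/f libraries lay close together, and d/d replicate 2 was the lowest of the d/d libraries. The means were 35.4 ± 18.9 FPKM in d/d libraries and 5.64 ± 0.452 FPKM in f/f libraries (SD, n = 3 each), a 6.27-fold ratio. On the log2(FPKM + 1) scale the fold change was 2.31, with an SE of 0.40 and a 95% interval of 1.34 to 3.27 (limma adjusted p = 0.0287 over all genes tested). An exact two-sided permutation test on Padi4 gave p = 0.1, the smallest p that 3 against 3 libraries allow. The call did not hold when d/d replicate 1 was left out (adjusted p = 0.0513), nor without f/f replicates 1, 2 or 3 (adjusted p = 0.131, 0.134 and 0.108), with log2 fold changes of 2.25 to 2.35 in these fits. Without f/f replicates 1, 2 or 3, only 0, 30 and 111 of all 12979 genes tested were called. Without d/d replicate 1 the number was 1319. Of the 4 members tested, 1 was called higher, where 3.49% of all genes tested were called higher and 7.3% in either direction.

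**Figure D1:**
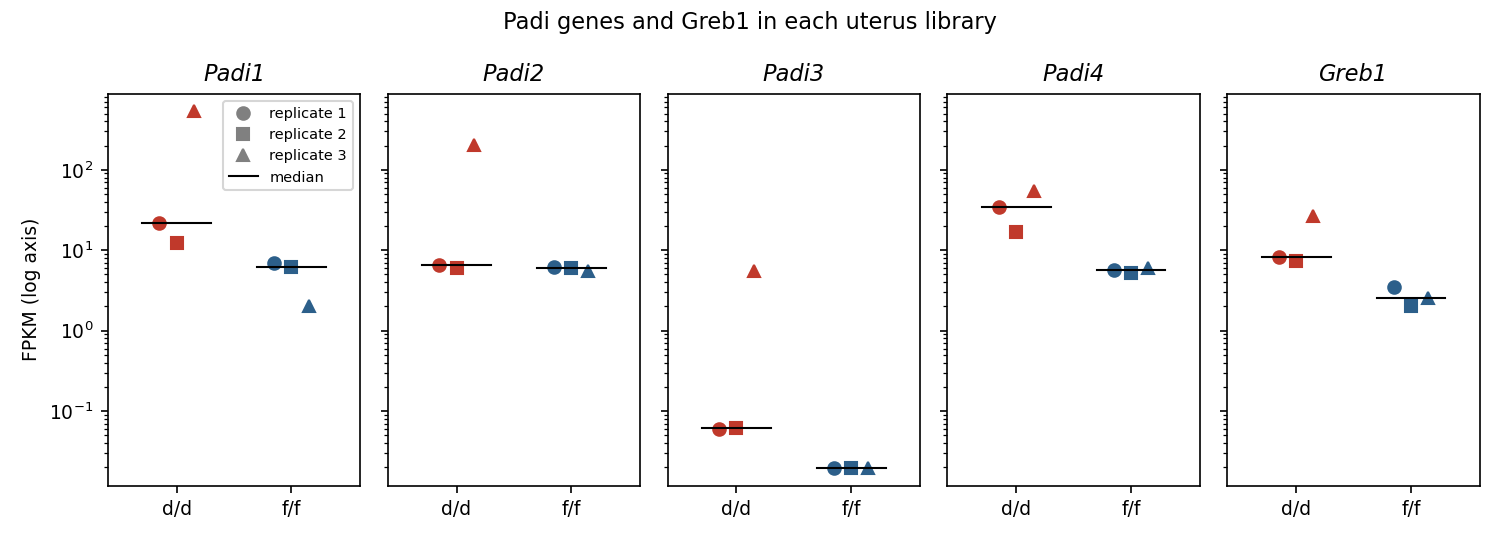
FPKM of Padi1, Padi2, Padi3, Padi4 and Greb1 (log axis) in the 3 d/d and the 3 f/f libraries, with the shape giving the replicate number and a line at the median of each genotype. Padi4 and Greb1 are higher in every d/d library, while Padi2 is at 205 FPKM in d/d replicate 3 and at 5.94 and 6.46 FPKM in the other d/d libraries.

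Neutrophils are the best known source of Padi4. The 14 neutrophil markers summed to 2.61, 97.5 and 2.45 times the f/f mean in d/d replicates 1, 2 and 3. Of the 14, 10 had their highest value in d/d replicate 2, 2 peaked in replicate 3 of d/d, 1 peaked in an f/f library, and 1 was listed at 0 throughout. In d/d replicate 2 the calgranulin genes S100a8 and S100a9 were at 406 and 560 FPKM and the chemokine receptor gene Cxcr2 at 18.7 FPKM, while Padi4 was at 16.8 FPKM. In d/d replicate 3, where Padi4 was at 54.6 FPKM, S100a8 was at 0.238 FPKM, Cxcr2 at 0.0303 FPKM and S100a9 was listed at 0. The 2 markers highest in that library were Ly6g, at 3.59, 5.80 and 24.96 FPKM in d/d replicates 1, 2 and 3, against 0.927 to 1.15 FPKM in f/f libraries, and Mpo, listed at 0 in d/d replicate 1 and at 0.284 and 1.63 FPKM in d/d replicates 2 and 3, against 0.181 to 1.00 FPKM in f/f libraries. Of the granule genes in the list, Elane was listed at 0 in all 6 libraries and Ngp in all but d/d replicate 2. The granule genes Mmp8 and Camp were highest in d/d replicate 2, at 5.27 and 0.440 FPKM. Without d/d replicate 2, Padi4 had a log2 fold change of 2.75 (limma adjusted p = 0.00761). How far neutrophils contribute to the level of Padi4 was not tested.

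Padi4 was also set against the epithelial marker sum. It amounted to 1.71%, 1.99% and 1.64% of the summed FPKM of the 10 epithelial markers in d/d replicates 1, 2 and 3, against 0.492%, 0.450% and 0.449% in the f/f libraries. Set against this sum the d/d libraries lay within a narrow band, at 1.78% ± 0.190, against 0.464% ± 0.0245 in f/f libraries (SD, n = 3 each), and the ratio of the means was 3.84. Of all genes tested, 3.49% were called higher and 3.81% lower. Of the epithelial markers, 3 of 10 were called higher, 0 were called lower and 7 did not pass. Among those called higher was the adhesion molecule gene Epcam at 261, 165 and 417 FPKM in d/d libraries, against 78.9, 95.4 and 94.4 FPKM in f/f libraries. The tight junction gene Cldn3, among the 7, was at 390, 76.3 and 294 FPKM in d/d libraries, against 433, 466 and 483 FPKM in f/f libraries. How far the amount of epithelium contributes to the level of Padi4 was not tested.

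**Figure D2:**
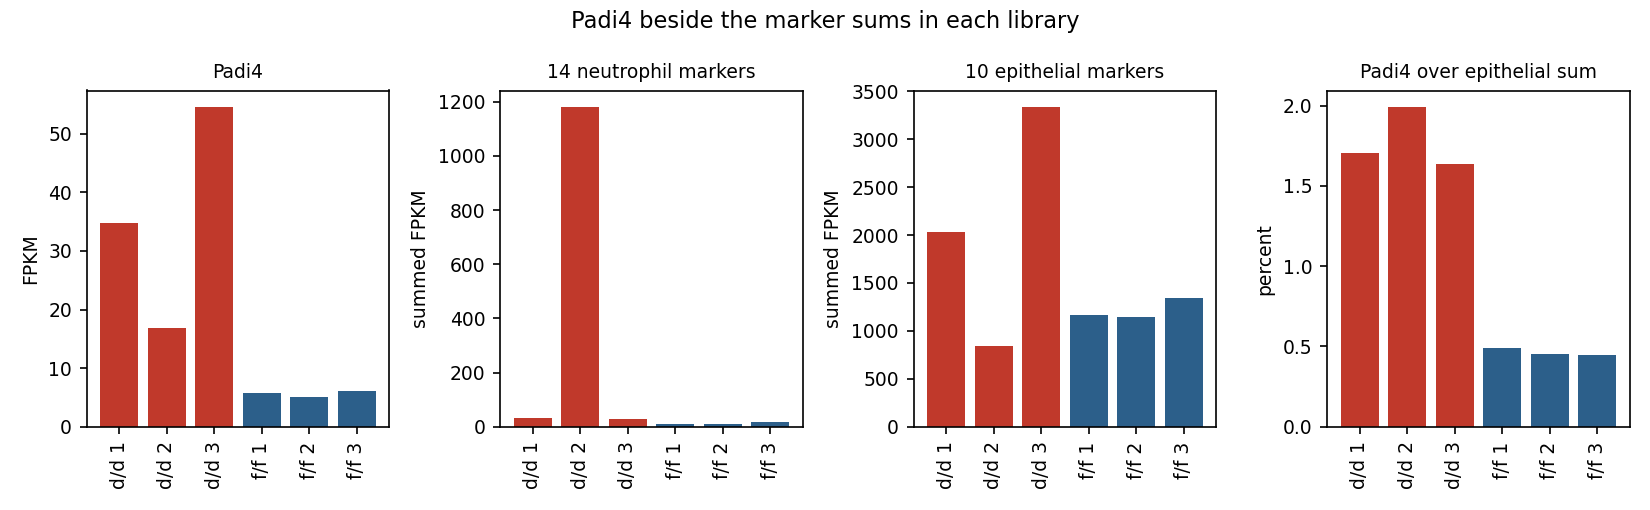
Padi4 (FPKM), the summed FPKM of 14 neutrophil markers and of 10 epithelial markers, and Padi4 as a percentage of the epithelial sum, 1 bar for each d/d and f/f library. The neutrophil sum is highest in d/d replicate 2 (1182), where Padi4 is lowest of the d/d libraries, and the percentage is 1.64% to 1.99% in d/d and 0.449% to 0.492% in f/f libraries.

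Padi1 was higher in all d/d libraries but by very unequal amounts. It stood at 21.8, 12.2 and 533 FPKM in d/d replicates 1, 2 and 3, against 6.91, 6.12 and 2.02 FPKM in f/f replicates 1, 2 and 3. The genotypes did not overlap, d/d replicate 3 lay far above the other d/d libraries, and f/f replicate 3 lay below the other f/f libraries. Relative to the f/f mean of 5.02 ± 2.62 FPKM (SD, n = 3), the d/d libraries were 4.34-fold, 2.42-fold and 106-fold higher, and their own mean was 189 ± 298 FPKM. The log2 fold change was 3.29 (95% interval -0.03 to 6.62) and did not pass (limma adjusted p = 0.191, exact permutation p = 0.1). Without d/d replicate 3 it was 1.64 (95% interval 0.37 to 2.91) and did not pass either (adjusted p = 0.104). In d/d replicate 3, Padi1 was the 130th highest gene of the table, where it ranked between 9162 and 11950 in the f/f libraries. Its log2 difference from the f/f mean there, 6.59, was the 4th largest of the 12979 genes.

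Padi2 was high in d/d replicate 3 and nowhere else. It stood at 6.46, 5.94 and 205 FPKM in d/d replicates 1, 2 and 3, against 6.22, 6.01 and 5.57 FPKM in the f/f libraries. Leaving d/d replicate 3 aside, the genotypes overlapped. The log2 fold change over all libraries, 1.67 with a 95% interval of -1.45 to 4.79, did not pass (limma adjusted p = 0.452; p = 0.3 by exact permutation) and rests on that library. Without it the log2 fold change was 0.06 (95% interval -0.28 to 0.39, adjusted p = 0.812). The log2 difference of 4.89 between d/d replicate 3 and the f/f mean was the 20th largest of all genes tested in that library.

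Padi3, the hair follicle enzyme gene, was barely detected outside the same library. It was at 0.0597, 0.0610 and 5.48 FPKM in d/d replicates 1, 2 and 3, against 0.0199, 0.0197 and 0.0197 FPKM in f/f libraries. Values this low can stand for a few fragments, so no fold is given. Since 1 library reached 1 FPKM, Padi3 did not pass the filter, and in a fit of all 17739 genes above 0 it had a log2 fold change of 0.93 (limma adjusted p = 0.506). Padi1 and Padi3 share a run of 63 identical bases in their transcripts of 3754 and 3310 bases, the longest between any pair of the 4 family members (27 to 35 bases for the others), so fragments of Padi1 could be counted for Padi3. Padi3 amounted to 0.274%, 0.501% and 1.03% of Padi1 in d/d replicates 1, 2 and 3. In f/f replicates 1, 2 and 3 it amounted to 0.287%, 0.322% and 0.976%. Padi3 was nearly level over the f/f libraries, so the differences between their percentages follow the level of Padi1. Percentages from Padi3 values this low give no expected level of Padi3 for d/d replicate 3. How much of the Padi3 value comes from fragments of Padi1 was not tested.

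**Figure D3:**
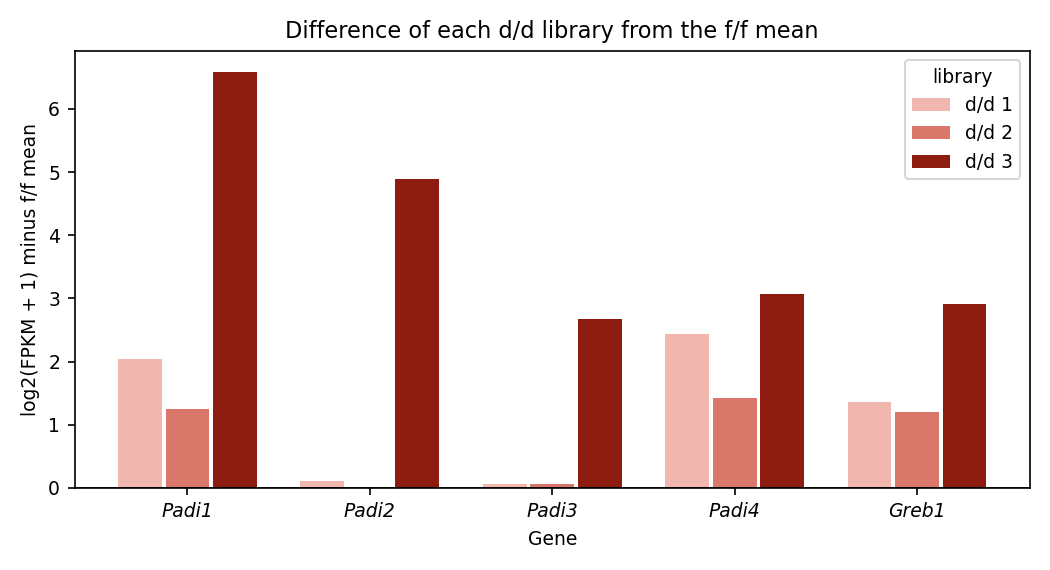
Difference between the log2(FPKM + 1) of each d/d library and the mean of the 3 f/f libraries for the 5 genes. Padi2 and Padi3 stand at 4.89 and 2.67 in d/d replicate 3 and at 0.11 or less in the other d/d libraries, Padi1 reaches 6.59 in d/d replicate 3, and Padi4 and Greb1 stand at 1.20 to 3.07 in all d/d libraries.

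Greb1 was higher in all d/d libraries without passing the test. It stood at 8.32, 7.37 and 26.5 FPKM in d/d replicates 1, 2 and 3, against 3.47, 2.02 and 2.58 FPKM in f/f replicates 1, 2 and 3. The genotypes did not overlap, d/d replicates 1 and 2 were close to each other, and d/d replicate 3 was the highest. The means were 14.1 ± 10.8 and 2.69 ± 0.729 FPKM in d/d and f/f libraries (SD, n = 3 each), with a difference of 1.82 on the log2 scale (95% interval 0.68 to 2.96, SE 0.47; limma adjusted p = 0.0713; p = 0.1 by exact permutation). Greb1 passed when d/d replicate 3 was left out (log2 fold change 1.28, adjusted p = 0.0359) and when d/d replicate 2 was (2.13, adjusted p = 0.0484). Greb1 did not pass without d/d replicate 1 (limma adjusted p = 0.0736) or without f/f replicates 1, 2 or 3 (limma adjusted p = 0.187, 0.233 and 0.202). Over all genes tested, 1319, 1367 and 1005 were called without d/d replicates 1, 2 or 3. The numbers were 0, 30 and 111 without f/f replicates 1, 2 or 3. Its paralog Greb1l was at 3.43, 0.809 and 0.957 FPKM in d/d libraries, against 2.79, 1.49 and 2.49 FPKM in f/f libraries (log2 fold change -0.36, adjusted p = 0.600), and their transcripts share no run of 31 bases. In 3 of the 4 members tested (Padi1, Padi4 and Greb1) all d/d libraries lay above all f/f libraries, where this held for 18.1% of all genes tested.

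The order of the 4 deiminase genes differed between libraries. In d/d replicates 1 and 2 Padi4 was the highest, with 55.1% and 48.0% of the summed FPKM of the family, against 29.7% to 44.2% in f/f libraries. Padi4 was also the highest in f/f replicate 3, at 44.2%, with Padi2 at 40.8%. In FPKM, which is scaled by gene length, Padi1, Padi2 and Padi4 stood close together in f/f replicates 1 and 2, between 5.15 and 6.91, and Padi1 was the lowest of them in f/f replicate 3 at 2.02. In d/d replicate 3 Padi1 made up 66.8% and Padi2 25.7%, while Padi4, although at its highest level there, made up 6.84%. The family sum was 63.1, 34.9 and 798 FPKM in d/d replicates 1, 2 and 3, against 18.9, 17.3 and 13.6 FPKM in the f/f libraries. Padi1 and Padi2 were among the genes with the largest spread between d/d libraries, with SDs of 2.88 and 2.79 on the log2 scale (19th and 22nd of 12979), against a median of 0.30 over all genes. The SDs of Padi4 and Greb1 were 0.83 and 0.95.

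**Figure D4:**
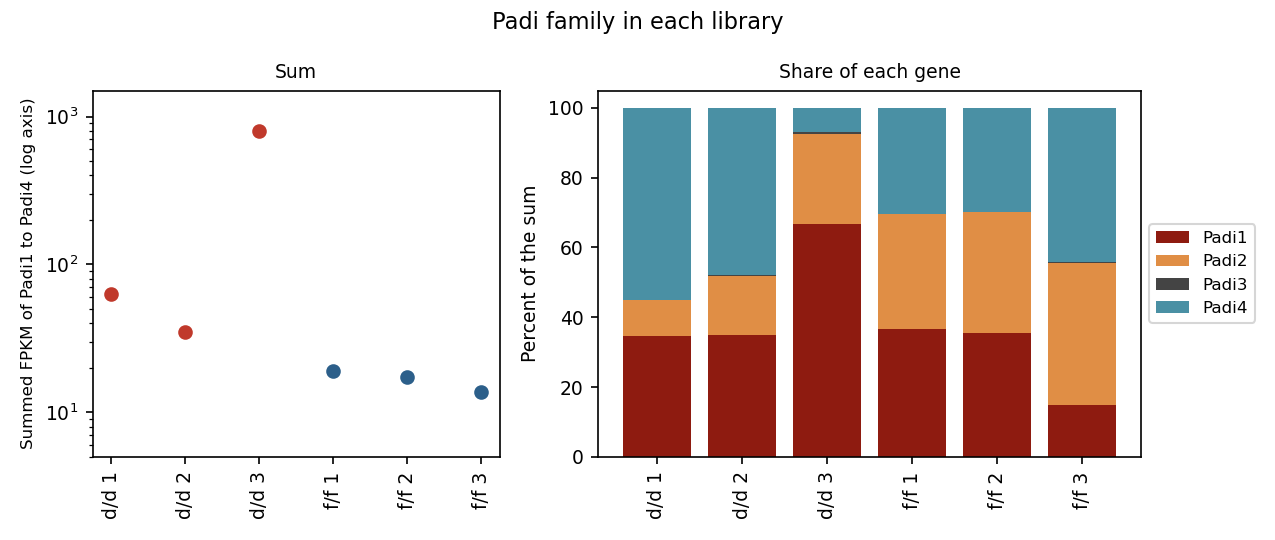
Summed FPKM of Padi1 to Padi4 (left, log axis) and the percentage that each gene contributes (right) in the d/d and f/f libraries. The sum is 798 FPKM in d/d replicate 3, where Padi1 makes up 66.8%, and 13.6 to 18.9 FPKM in f/f libraries.

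The genes around the cluster lay closer to their f/f levels than Padi1 and Padi2 did in d/d replicate 3. There the 8 tested neighbours, out of the 5 nearest protein-coding genes on either side, differed from the f/f mean by -0.48 to 0.56 on the log2 scale. In d/d replicates 1 and 2, where Padi2 differed from the f/f mean by 0.11 and 0.00, the neighbours ranged more widely, from -0.68 to 0.76 and from -0.77 to 1.38, both with the highest value at Arhgef10l. The 1.38 of Arhgef10l in d/d replicate 2 lay between Padi1 at 1.25 and Padi4 at 1.42 in that library. Rcc2, a mitotic regulator gene 4135 bp from the cluster on the Padi6 side, was at 53.5, 50.7 and 60.6 FPKM in d/d libraries, against 46.6, 48.4 and 45.1 FPKM in f/f libraries. Sdhb, a gene of the respiratory chain 8617 bp beyond Padi2, was at 56.5, 84.5 and 94.4 FPKM, against 79.7, 80.9 and 78.1 FPKM. Padi6, within the cluster, was listed at 0 or below 0.03 FPKM in every library. Of the 14 tested neighbours of the cluster and of Greb1, 0 were called by limma, against 7.3% of all genes tested, and 3 had an unadjusted p under 0.05 (Pqlc3, Arhgef10l and Lpin1), against 26.7% of all genes tested. With so few genes these counts do not set the neighbours apart from the rest. Without d/d replicate 2, Pqlc3 was called higher and Mfap2 lower, in a fit that called 1367 of all 12979 genes tested.

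**Figure D5:**
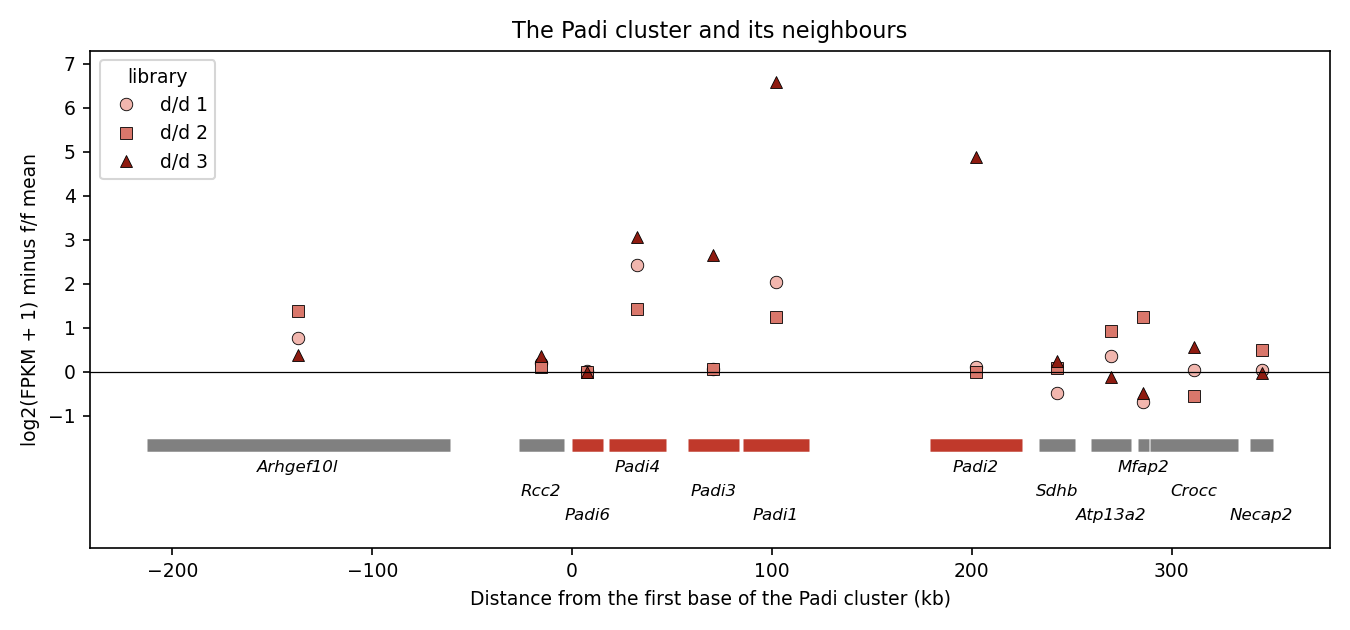
Log2 difference of each d/d library from the f/f mean (vertical axis) for the tested genes of the Padi cluster and its surroundings, with Padi3 and Padi6 added, at their distance from the first base of the cluster in kb. Bars mark the genes, red for Padi genes, and 3 farther genes are not drawn. In d/d replicate 3 the points of Padi4, Padi3, Padi1 and Padi2 stand at 3.07, 2.67, 6.59 and 4.89, while the tested neighbours stay between -0.48 and 0.56.

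The epithelial marker sum was also highest in d/d replicate 3, at 2.74 times the f/f mean, which is a smaller difference than that of Padi1 and Padi2. Against this sum Padi1 amounted to 1.07%, 1.45% and 16.0% in d/d replicates 1, 2 and 3 and to 0.150% to 0.592% in f/f libraries, and Padi2 to 0.317%, 0.706% and 6.14%, against 0.414% to 0.532%. The listed markers of stratified epithelium, where Padi1 and Padi3 are best known, were low as a sum in both genotypes. The 10 markers summed to 10.1, 11.8 and 11.2 FPKM in d/d libraries, against 7.94 to 12.0 in f/f libraries. Krt10 made up most of this sum in the d/d libraries, at 5.71, 7.59 and 5.71 FPKM, against 6.48 to 9.39 FPKM in f/f libraries. Ivl, the gene of the cornified envelope protein involucrin, was highest in the same library as Padi1, at 0.568, 0.855 and 3.00 FPKM in d/d replicates 1, 2 and 3, against 0 to 0.0332 FPKM in f/f libraries. Dsg1a was listed at 0 in every library. Flg was listed at 0 in d/d replicate 3, where Krt1 was at 0.271 FPKM and the basal keratin gene Krt5 at 0.399 FPKM. The part of stratified epithelium in the levels of Padi1 and Padi3 was not tested. Oligodendrocyte markers, from the brain cell type known for Padi2, summed to 1.60 FPKM in d/d replicate 3, and the oocyte and embryo markers to 0.938 FPKM.

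The genes most like each member across the 6 libraries were found by the Euclidean distance between log2(FPKM + 1) values taken relative to the f/f mean. Crabp2, which encodes a retinoic acid carrier protein, was nearest to Padi1 (distance 1.17, Pearson r = 0.99 over 6 libraries), at 6.30, 2.07 and 80.1 FPKM in d/d replicates 1, 2 and 3, against 0.241 to 0.969 FPKM in f/f libraries. Chst8, a sulfotransferase gene, was second to Padi1 and nearest to Padi2 (distance 1.06 from Padi2), at 1.50, 1.70 and 73.7 FPKM in d/d libraries, against 0.417 to 0.967 FPKM in f/f libraries. Sfn was also near Padi1, and the next nearest to Padi2 were Nrtn, which encodes the growth factor neurturin, Alpl, which encodes an alkaline phosphatase, and Dkkl1. Several of these genes shared the single high value in d/d replicate 3. Padi4 had closer neighbours, with Ano9, Apol7a, Galnt12 and Mpzl2 at distances of 0.31 to 0.64. That all 4 were called higher is largely set by choosing them for values like those of a called gene. Serinc2 was nearest to Greb1 (distance 0.22), at 37.7, 33.9 and 112 FPKM in d/d libraries, against 12.4 to 15.2 FPKM in f/f libraries, followed by Plch1, Ggt1 and Rab27b. Such likeness over 6 libraries of 2 genotypes is a description. Among the members, Padi4 and Greb1 were nearest to each other (distance 1.16), and every distance between Padi genes was at least 2.23.

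Of genes known to be raised by estrogen in the uterus, listed without the 5 members, 27 of 30 could be tested, and 12 were called higher and 2 lower, where 3.49% and 3.81% of all genes tested were. Their median log2 fold change was 1.10, against 0.02 over all genes. The list was chosen with earlier results of these data known and is no independent evidence of direction. Wnt7b, which encodes a secreted signal of the epithelium, was at 16.8, 13.3 and 16.8 FPKM in d/d libraries, against 0.270, 0.135 and 1.30 FPKM in f/f libraries (log2 fold change 3.47, limma adjusted p = 0.00695). Wnt7b was nearly level over the d/d libraries, and other genes called higher were not. The mucin gene Muc4 was highest in d/d replicate 3, at 52.3, 69.1 and 218 FPKM in d/d replicates 1, 2 and 3. Ltf, the lactoferrin gene, was highest in d/d replicate 2, at 462, 1590 and 948 FPKM in d/d replicates 1, 2 and 3. The complement gene C3 was at 419, 859 and 1063 FPKM, against 9.75 to 40.9 FPKM. The members called lower were the transcription factor gene Myc, at 28.7, 32.9 and 25.9 FPKM in d/d libraries, against 75.4, 64.2 and 82.1 FPKM in f/f libraries, and the growth factor gene Fgf1, which overlaps Arhgap26 on the other strand. Without f/f replicates 1, 2 and 3 in turn, the number called in either direction was 0, 1 and 3. Over all 12979 genes tested it was 0, 30 and 111 in these fits.

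The receptor of these signals did not differ detectably. Esr1, the estrogen receptor alpha gene, was at 53.8, 37.5 and 52.6 FPKM in d/d libraries, against 46.0, 43.7 and 52.8 FPKM in f/f libraries (log2 fold change 0.00, 95% interval -0.42 to 0.42). Pgr, the progesterone receptor gene and itself an estrogen target, was at 49.2, 17.3 and 33.2 FPKM, against 23.9, 23.6 and 23.1 FPKM (log2 fold change 0.36, 95% interval -0.49 to 1.22). In d/d replicate 3, where Padi1 and Padi2 stood out, Esr1 lay within the range of the other libraries. Pgr there lay above all f/f libraries and below d/d replicate 1. How far receptor levels contribute to the levels of Padi1 and Padi2 was not tested. Of 14 tested steroid receptor and coregulator genes, 0 were called by limma (7.3% of all genes), and 2 had an unadjusted p under 0.05 (26.7% of all genes), the coactivator gene Ncoa3 and Gata2. Gata2 was called lower without d/d replicate 1 or without d/d replicate 2 (log2 fold change -1.40 and -0.79). These fits called 1319 and 1367 of all 12979 genes tested.

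Of 17 genes whose proteins are reported deiminase substrates, 9 could be tested and 1 was called higher: Mbp, the myelin basic protein gene, at 6.75, 8.55 and 9.66 FPKM in d/d libraries, against 1.72, 1.42 and 2.65 FPKM in f/f libraries (log2 fold change 1.68, limma adjusted p = 0.0174). With 1 call in 9, against 7.3% of all genes, the substrates are not set apart from the rest. Mbp was not called without f/f replicate 1 or without f/f replicate 2, where 0 and 30 of all genes tested were called. The intermediate filament gene Vim, a stromal gene too, was at 211, 403 and 174 FPKM, against 562, 575 and 649 FPKM, and did not pass (log2 fold change -1.27, adjusted p = 0.0647), although it was called without d/d replicate 2 (adjusted p = 0.0121). The alpha-enolase gene Eno1, which has many near-identical copies and an uncertain value, was called without d/d replicate 1 (adjusted p = 0.0314). The fits without d/d replicate 2 and without d/d replicate 1 called 1367 and 1319 of all 12979 genes tested. The skin substrate genes Flg and Krt1 were below 0.7 FPKM in every library. Protein arginine methyltransferases modify the same residue that deiminases convert, and of 9 tested genes 0 were called, against 7.3% of all genes, and 0 had an unadjusted p under 0.05, against 26.7%. Among them Prmt1, the main enzyme of its kind, was at 164, 168 and 231 FPKM in d/d libraries, against 202, 208 and 205 FPKM in f/f libraries.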

How the data were processed

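Per the labels' protocols, TRIzol RNA went into Illumina TruSeq RNA libraries. Each library has a table of 21936 rows, with values the authors deposited and taken here as FPKM. The unit was inferred from decimal values, unequal totals and Cufflinks, and the file headers name none. HISAT2 2.2.1, Cufflinks 2.2.1 and the builds mm9 and mm10 are listed per the submitters' processing notes, without their roles. Neither the annotation nor strand handling is stated. Of the gene IDs, 21817 were in GENCODE release M21 (GRCm38), which gave the coordinates. Of rows sharing a symbol the highest was kept (36 removed). Genes with at least 1 FPKM in at least 3 libraries were log2-transformed after adding 1 FPKM and fitted in R 4.3.3 with limma 3.58.1 (genotype term, empirical Bayes with trend, two-sided, Benjamini-Hochberg adjustment, called at an adjusted p under 0.05). The fit was tested on simulated data. Exact permutation tests covered single genes. Depth is unknown, so no counting interval is given. Alternatives were other pseudocounts, scalings, filters, weights, a replicate block and each library left out. Members and lists were chosen with earlier results of these data known. Genes were named by rule: the members, up to 6 per list in order of p, defining markers, nearest neighbours and the 4 most like each member, of which not all are reported here. Krt1, Flg, Prmt1 and other genes given with their list or neighbourhood outside that order were chosen after their values were seen.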

Additional observations from a re-analysis of the deposited data

How the results depend on the processing

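Padi1 and Padi2 did not pass in any of 15 alternatives, with log2 fold changes of 1.64 to 4.32 and of 0.06 to 2.50. Padi4 kept its direction in all 15, and its call in 10. With libraries left out in turn its log2 fold change was 1.93 to 2.75, and with a replicate block it was 2.31 (limma adjusted p = 0.0620). Greb1 was called in 2 of 15, both with a d/d library left out (1.28 to 2.13 over the libraries left out). Replicate numbers did not pair the libraries (correlations of same-numbered deviations -0.02, 0.02 and -0.02). With the replicate block, 100 genes were called, against 947 without it, 7 estrogen-raised genes against 14 and 0 deiminase substrates against 1. With 1 library left out, the number of genes called was 1319, 1367 and 1005 without d/d replicates 1, 2 and 3 in turn. It was 0, 30 and 111 without f/f replicates 1, 2 and 3 in turn. The estrogen-raised genes called ranged from 0 to 15 and the steroid receptors and coregulators from 0 to 1. Substrates and neighbouring genes each ranged from 0 to 2. Quantile normalization and array weights each called 2 substrates. The cause of these shifts was not tested. No arginine methyltransferase gene was called in any of the 15. The depth is unknown, which limits what low values such as those of Padi3 show.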

Other observations

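The granulocyte receptor gene Csf3r was at 11.9, 89.6 and 1.37 FPKM in d/d libraries, against 1.97 to 2.60 FPKM in f/f libraries, and was highest in d/d replicate 2. Macrophage markers were also highest in d/d replicate 2, at a summed 6526 FPKM, with 1612 and 531 FPKM in d/d replicates 1 and 3, against 486 to 577 FPKM in f/f libraries.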
